A study of Homo sapiens with 12 samples.

Results

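The genes described here are the 10 members of the MYC/MAX transcription factor network and its neighbour PVT1 that were named by symbol, with no threshold on a measured value: MYC, MYCN, MYCL, PVT1, MAX, MXD1, MXD3, MXD4, MXI1 and MNT. All 10 were among the 20771 genes of the count table, and 9 of them passed the filter on low counts and were tested. MYCL did not pass, with 1 to 3 counts in each of the 12 libraries.

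RNA sequencing was performed on the EW8-RRM1-KO line and the TC71-RRM1-KO line, which are Ewing sarcoma cell lines (a bone and soft tissue tumor driven by an EWSR1 fusion) in which the endogenous RRM1 gene, encoding the catalytic subunit of ribonucleotide reductase, was targeted with CRISPR/Cas9. Both lines carry a codon-optimized, Cas9-resistant RRM1 transgene that is induced by doxycycline, and each line was cloned from a single cell, so that line and clone cannot be told apart. Each line contributed 3 libraries of cells with doxycycline (0 h) and 3 of cells from which doxycycline had been removed for 48 hours (48 h). All 4 groups therefore carry the knockout and the transgene, and loss of transgene expression and absence of the drug cannot be told apart. The labels do not say whether the replicates were separate cultures, so the p-values measure the spread between these libraries, which may be technical. The libraries held 18468485 to 35698991 counts, the highest in EW8 at 0 h and the lowest in EW8 at 48 h. In bulk RNA, fewer cells of a kind and less RNA per cell cannot be told apart.

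The transcript of RRM1 itself was counted 214, 166 and 317 times in EW8 at 0 h and 1201, 1449 and 1514 times at 48 h. In TC71 it was counted 422, 316 and 418 times at 0 h and 674, 707 and 778 times at 48 h. The groups did not overlap in either line, and the level was higher without doxycycline. Because the transgene has a different codon sequence and the edited gene can still be transcribed, these counts do not check the removal of RRM1. All 14 markers of Ewing sarcoma that were listed were detected in every library, among them NR0B1 (1338 to 3186 counts) and CD99 (4708 to 11244 counts). Of the defining markers of other lineages, the leukocyte gene PTPRC had at most 5 counts, the hepatocyte gene ALB at most 6 and the epithelial gene EPCAM 2 to 43. The cartilage gene COL2A1 had 63 to 262 counts and rose in both lines (log2 fold change 1.09 in EW8 and 1.29 in TC71). EPCAM rose in TC71 (0.67, adjusted p = 0.0353) and had a value of 1.14 in EW8 (adjusted p = 0.0676). Mitochondrial transcripts made up 3.80% to 4.10% of counts in EW8 at 0 h and 3.05% to 3.54% at 48 h, and 4.20% to 5.11% and 2.68% to 3.99% in TC71, so that they were lower at 48 h in both lines. The part of these in the results was not tested.

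MYC, MYCN and MYCL are basic helix-loop-helix leucine zipper proteins that bind DNA only as heterodimers with MAX, at E-boxes of which CACGTG is the canonical form, and mainly activate genes of growth, ribosome production and nucleotide synthesis. MXD1, MXD3, MXD4, MXI1 and MNT also pair with MAX and occupy the same sites, but recruit the SIN3 and histone deacetylase corepressor complex, and MXD proteins typically accumulate as cells leave the cycle. PVT1 is a long noncoding RNA transcribed from the region next to MYC, and its RNA and promoter have both been linked to MYC expression and protein stability in tumors.

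Of the 9 members tested, 6 had a response that differed between the 2 lines, each more positive in EW8. Over all genes tested, the response was called more positive in EW8 for 25.7% and less positive for 22.4%. After removal of doxycycline from EW8 cells, MYC, MYCN, PVT1, MAX, MXD1 and MXD4 rose and MXD3 and MXI1 fell, whereas in TC71 cells PVT1, MXD1 and MXD4 rose by less and MXI1 fell. A gene was called when the adjusted p of edgeR's quasi-likelihood test (Benjamini-Hochberg over all genes tested) was below 0.05. In EW8, 6 of the 9 members tested were called higher at 48 h, against 37% of all 16515 genes tested, and 2 were called lower, against 31.6%. With a fold above 2 also required, 3 members were higher, against 13.9% of all genes, and 0 were lower, against 3.35%. In TC71, 3 members were higher against 22.9% of all genes and 1 was lower against 19.2%. No tested member changed in TC71 by more than 2-fold, where 3.26% of all genes did so upward and 0.854% downward. Calls were thus common among all genes, and the members are described below by size.

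**Figure D1:**
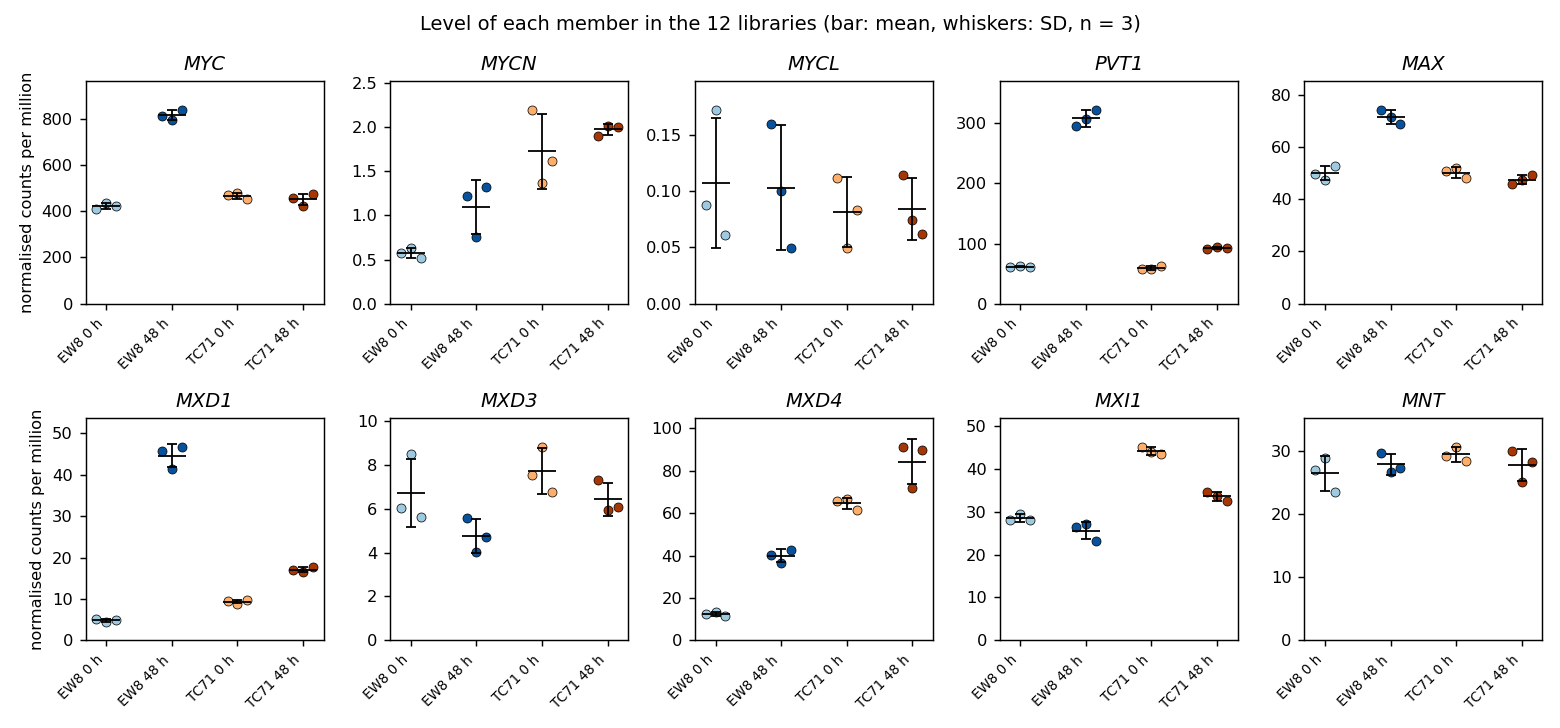
Normalized level (CPM, counts scaled to a common library size) of the 10 genes in the 12 libraries, 1 panel per gene with its own axis from 0. Points are libraries, long bars the group means and whiskers the SD (n = 3). The 3 EW8 libraries at 48 h lie above all others for MYC, PVT1, MAX and MXD1, and MYCL stays at a few counts throughout.

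MYC, the most widely expressed gene of its family, spans chromosome 8 from 127735434 to 127742951 on the + strand (hg38). In EW8 at 0 h the 3 libraries held 409, 434 and 424 CPM (scaled also for composition), and at 48 h 813, 797 and 839 CPM. The 48 h libraries all lay far above the 0 h libraries, from a mean of 422 ± 12.6 to 817 ± 21.4 CPM (SD, n = 3). The log2 fold change was 0.95 (SE 0.04, adjusted p = 6.31e-21), a 1.93-fold rise. A larger change in either direction was fitted for 19.6% of all genes in this line.

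In TC71, the MYC level was 469, 478 and 453 CPM at 0 h and 456, 424 and 475 CPM at 48 h. These groups overlapped, and the log2 fold change was -0.05 (95% interval -0.13 to 0.03, adjusted p = 0.356). The responses of the lines differed by 0.998 on the log2 scale (SE 0.06, adjusted p = 3.61e-16). At 0 h, EW8 was slightly below TC71 (log2 difference -0.14, adjusted p = 0.00170), and at 48 h it was above it (0.85, adjusted p = 7.65e-20). The level in EW8 at 48 h thus stood apart from the other 3 groups, among which TC71 at 0 h and at 48 h did not differ beyond their spread.

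MYCN, the neural family member, lies on chromosome 2 (15940550 to 15947007, + strand) and was expressed at the edge of detection. EW8 libraries held 13, 11 and 17 counts before removal of doxycycline and 23, 15 and 27 after it, and TC71 libraries 59, 28 and 39 before and 50, 54 and 65 after. Scaled for depth, the groups of EW8 did not overlap (0.573 ± 0.0559 against 1.10 ± 0.304 CPM), and those of TC71 did (1.73 ± 0.424 against 1.98 ± 0.0599 CPM). MYCN rose in EW8 by 0.96 on the log2 scale (SE 0.30, adjusted p = 0.00476), and in TC71 the value was 0.17 (95% interval -0.22 to 0.57, adjusted p = 0.503). The difference of the responses was 0.79 (adjusted p = 0.0661), and passed the threshold without EW8 48 h replicate 2 (1.0, adjusted p = 0.0232) or without TC71 0 h replicate 2 (0.91, adjusted p = 0.0372). MYCN was lower in EW8 than in TC71 at 0 h (-1.63, adjusted p = 1.24e-06) and at 48 h (-0.85, adjusted p = 0.00109).

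MYCL, on chromosome 1 (39895428 to 39902256, - strand), had at most 3 counts in any library, so no fold change is given. Per length of transcript, MYC made up 99.0% to 99.7% of the summed level of the 3 family genes in each of the 4 groups. In the family, therefore, nearly all transcripts were those of MYC.

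PVT1 starts 51575 bases beyond the end of MYC on the same strand, from 127794526 to 128187101, and is annotated with 190 transcripts. In EW8 it rose from 60.9, 62.6 and 61.5 CPM at 0 h to 295, 307 and 322 CPM at 48 h. All 48 h libraries lay above all 0 h libraries, and the 5.01-fold rise (log2 2.32, SE 0.05, adjusted p = 7.19e-30) was exceeded in size by 3.38% of genes. In TC71 it rose from 57.5, 57.4 and 62.6 CPM to 91.0, 94.1 and 92.8 CPM, again without overlap, a 1.56-fold change (log2 0.65, SE 0.05, adjusted p = 2.38e-13).

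The rise of PVT1 was larger in EW8 than in TC71 by 1.68 on the log2 scale (SE 0.07, adjusted p = 1.04e-19). At 0 h no difference between the lines was detected, with overlapping libraries and a log2 difference of 0.06 (95% interval -0.04 to 0.16, adjusted p = 0.303), and at 48 h EW8 was higher by 1.74 (adjusted p = 4.04e-27). PVT1 also rose where MYC did not pass the test: for every 100 MYC counts, the PVT1 count went from 14.6 ± 0.252 to 37.8 ± 1.26 in EW8 and from 12.7 ± 0.984 to 20.6 ± 1.42 in TC71 (SD, n = 3). Within either line the 0 h and 48 h values of this proportion did not overlap. Levels of MYC and PVT1 are not compared per length, because the annotated exons of PVT1 cover 25431 bases in all and its canonical transcript 2444.

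The small nuclear RNA gene RNVU1-32, which lies within 0.645% of the exon bases of PVT1 on its strand, had 13 to 123 counts and log2 fold changes of 2.39 in EW8 and 1.25 in TC71. CASC11, a long noncoding RNA on the strand opposite to MYC that shares 3.18% of its exon bases, had 2 to 17 counts, and gave log2 fold changes of 1.94 (EW8) and -0.08 (TC71, adjusted p = 0.905). Their counts were far below those of PVT1 and MYC, and how reads of such overlaps were assigned was not tested.

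Of the 11 other genes around MYC and PVT1 that were listed and tested, 6 rose and 4 fell in EW8 (median log2 fold change 0.27, against 0.03 over all genes), and 4 rose and 3 fell in TC71 (median 0.00, as over all genes). All genes tested gave 37% up and 31.6% down in EW8, and 22.9% and 19.2% in TC71. LRATD2 rose in both lines (0.85 in EW8, 0.36 in TC71). SQLE, encoding squalene epoxidase of the cholesterol pathway, fell in both (-1.09 and -0.35). WASHC5 also fell in both (-0.41 and -0.27). CYRIB fell in EW8 (-0.76), and its value in TC71 was -0.05 (adjusted p = 0.440). Genes of the region thus moved in both directions.

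By the correlation of log2 CPM over the 12 libraries, the genes whose pattern was most like that of MYC were YRDC, SOX4, PHF8, DXO and KLF15 (Pearson's r 0.983 to 0.991). Among those most like PVT1 were ACTN2, NEU1, USP36 and ENSG00000162290 (r 0.997 to 0.998), of which USP36 encodes a deubiquitinase that acts on MYC protein. The 12 libraries fall into 4 groups, so these values describe which genes follow the order of the groups. As an example, SOX4, a transcription factor of development, had log2 fold changes of 0.92 in EW8 and -0.03 in TC71, and USP36 1.03 and 0.32.

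MAX, the shared partner of the MYC, MXD and MNT proteins, lies on chromosome 14 (65006174 to 65102695, - strand). In EW8 it went from 49.5, 47.4 and 52.7 CPM at 0 h to 74.1, 71.6 and 68.9 CPM at 48 h. The groups were separate, and the rise was 1.43-fold (log2 0.52, SE 0.05, adjusted p = 1.54e-10). In TC71 the libraries held 50.6, 51.9 and 48.1 CPM and then 45.8, 47.1 and 49.3 CPM, with overlap and a log2 fold change of -0.08 (95% interval -0.19 to 0.03, adjusted p = 0.230). The responses differed by 0.60 (SE 0.07, adjusted p = 4.53e-08).

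At 0 h, no difference of MAX between the lines was detected (log2 difference -0.00, 95% interval -0.11 to 0.11, with a sign that changes with the scaling), and at 48 h it was higher in EW8 by 0.59 (adjusted p = 3.20e-12). Per length, MYC transcripts exceeded those of MAX by 8.70 ± 0.608 to 1 in EW8 at 0 h and 11.7 ± 0.678 to 1 at 48 h, and by 9.53 ± 0.112 and 9.76 ± 0.498 to 1 in TC71. With canonical transcript lengths these ratios were 4.59 ± 0.320 and 6.17 ± 0.358 in EW8 and 5.02 ± 0.0593 and 5.15 ± 0.263 in TC71, so the size depends on the lengths. FNTB, which shares 13.1% of the exon bases of MAX on the opposite strand, had 205 to 483 counts and moved the other way in EW8 (-0.45).

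**Figure D2:**
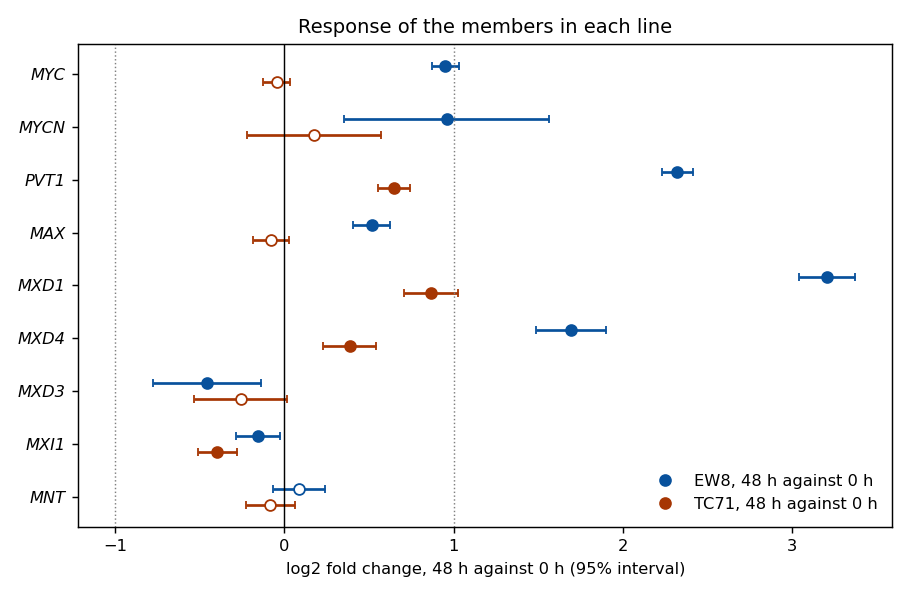
Log2 fold change of the 9 genes tested, 48 h against 0 h, in EW8 (blue) and TC71 (brown), with 95% intervals. Filled points passed an adjusted p of 0.05 in edgeR's quasi-likelihood test, open points did not, and dotted lines mark a 2-fold change. MXD1, PVT1 and MXD4 lie to the right in both lines and farther in EW8, while MXI1 lies to the left in both.

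Among the antagonists, MXD1 (also known as MAD1, the founding MXD gene, induced during differentiation) showed the largest change of the network. It spans chromosome 2 from 69897688 to 69942945 on the + strand. In EW8 it was counted 117, 78 and 158 times at 0 h and 860, 828 and 956 times at 48 h, which is 5.12, 4.47 and 4.82 CPM against 45.7, 41.5 and 46.8 CPM. Every 48 h library was above every 0 h library, and the 9.25-fold rise (log2 3.21, SE 0.08, adjusted p = 7.98e-27) was exceeded in size by 1.44% of genes.

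In TC71, MXD1 rose from 9.42, 8.88 and 9.64 CPM to 17.0, 16.4 and 17.7 CPM, again without overlap, a 1.83-fold change (log2 0.87, SE 0.08, adjusted p = 5.55e-11). The response was larger in EW8 by 2.34 (SE 0.12, adjusted p = 3.41e-17), the largest such difference among the members. The order of the lines also turned: EW8 was below TC71 at 0 h (-0.95, adjusted p = 2.20e-10) and above it at 48 h (1.39, adjusted p = 2.05e-19). SNRNP27, which shares 3.73% of the exon bases of MXD1 on its strand, rose by 0.24 in EW8 (adjusted p = 0.00102). Its value in TC71 was 0.07 (adjusted p = 0.383).

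The 250 bases before the RefSeq start of MXD1, which lies inside the span given above (GRCh38.p14, chr2:69914859-69915108, + strand), are shown because this gene rose most. They hold neither CACGTG nor the AP-1 core TGACTCA on either strand, so no letter is in capitals.

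MXD1: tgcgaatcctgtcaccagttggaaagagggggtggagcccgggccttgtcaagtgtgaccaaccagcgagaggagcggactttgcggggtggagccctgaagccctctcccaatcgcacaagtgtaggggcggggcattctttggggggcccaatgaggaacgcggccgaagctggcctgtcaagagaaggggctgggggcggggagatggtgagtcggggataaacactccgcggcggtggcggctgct

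Such windows were read for 8 of the 10 members, 11 windows in all with alternative starts, and searched for the same letters. CACGTG, which reads the same on both strands, was found in 2 of the 11 windows, those of MXD4 and MNT, and in 6.35% of the 35116 windows of the RefSeq table (2228). TGACTCA or its reverse complement TGAGTCA was found in 1 window, that of MXD3, and in 4.203% of all windows (1476). A match describes letters and does not show binding, and no match says only that the letters are not in that window. The motifs do not overlap each other.

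MXD4, on chromosome 4 (2247432 to 2262109, - strand), is the antagonist that differed most between the lines before removal of doxycycline. In EW8 it rose from 12.2, 13.5 and 11.7 CPM to 40.4, 36.5 and 42.8 CPM, 3.24-fold without overlap (log2 1.69, SE 0.10, adjusted p = 1.16e-11). In TC71 it went from 65.7, 66.5 and 61.6 CPM to 91.4, 71.9 and 89.9 CPM, a smaller rise without overlap (log2 0.39, SE 0.08, adjusted p = 4.03e-04). This rise in TC71 was not called when tested against a fold of 1.2 (adjusted p = 0.111), and replicate 2 at 48 h was nearest to the 0 h libraries.

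The response of MXD4 was larger in EW8 by 1.31 (SE 0.12, adjusted p = 6.58e-08). EW8 held less MXD4 than TC71 at 0 h (-2.39, adjusted p = 2.73e-14) and still at 48 h (-1.08, adjusted p = 3.51e-10), so that the highest EW8 library at 48 h stayed below the lowest TC71 library at 0 h.

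The window before the MXD4 start (GRCh38.p14, chr4:2262110-2262359, - strand) is shown because it holds the E-box. Capitals mark CACGTG, whose first base lies 238 bases before the start.

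MXD4: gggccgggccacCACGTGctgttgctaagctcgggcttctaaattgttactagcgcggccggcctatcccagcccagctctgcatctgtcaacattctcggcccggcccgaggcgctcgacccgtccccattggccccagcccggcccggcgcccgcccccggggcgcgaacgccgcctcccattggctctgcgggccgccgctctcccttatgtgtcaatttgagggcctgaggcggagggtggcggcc

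MXI1 (also known as MXD2) lies on chromosome 10 (110207605 to 110287365, + strand) and was the member that fell in both lines. In TC71 it went from 45.2, 43.9 and 43.5 CPM to 34.7, 33.6 and 32.5 CPM, without overlap (log2 -0.40, SE 0.06, adjusted p = 7.65e-07). In EW8 it went from 28.2, 29.6 and 28.0 CPM to 26.5, 27.1 and 23.3 CPM, also without overlap but with a much smaller change (log2 -0.15, SE 0.06, adjusted p = 0.0313). The call in EW8 was lost without EW8 48 h replicate 3, the lowest library (-0.09, adjusted p = 0.267).

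The responses of MXI1 differed by 0.24 (SE 0.09, adjusted p = 0.0188), the smaller fall being in EW8. That call was lost when 1 of 6 libraries was left out (EW8 0 h replicate 1 or 3, EW8 48 h replicate 1 or 2, TC71 0 h replicate 1 or TC71 48 h replicate 3), with differences of 0.20 to 0.22 and adjusted p of 0.0515 to 0.0785. It was also not called against a fold of 1.2 (adjusted p = 0.569). MXI1 was lower in EW8 than in TC71 at 0 h (-0.63, adjusted p = 1.80e-11) and at 48 h (-0.39, adjusted p = 8.83e-07).

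MXD3, the MXD gene most linked to proliferating cells, lies on chromosome 5 (177301461 to 177312757, - strand) and was low. EW8 libraries held 6.04, 8.48 and 5.61 CPM at 0 h and 5.58, 4.01 and 4.70 CPM at 48 h, so the groups were barely separate. MXD3 fell by 0.46 on the log2 scale (SE 0.15, adjusted p = 0.0105), and the call was lost without EW8 0 h replicate 2 (-0.32, adjusted p = 0.0575) or EW8 48 h replicate 2 (-0.35, adjusted p = 0.0728). In TC71 it was 7.56, 8.83 and 6.74 CPM against 7.29, 5.93 and 6.06 CPM, with overlap (log2 -0.26, 95% interval -0.53 to 0.02, adjusted p = 0.125). The difference of the responses was -0.20 (adjusted p = 0.449).

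Between the lines, MXD3 gave -0.23 at 0 h (adjusted p = 0.140, or -0.39 with adjusted p = 0.0126 without EW8 0 h replicate 2) and was lower in EW8 at 48 h (-0.43, adjusted p = 0.0124). The latter call was lost without EW8 48 h replicate 2 (-0.32, adjusted p = 0.0886) or TC71 48 h replicate 1 (-0.34, adjusted p = 0.0583), and with the replicate number as a block (adjusted p = 0.0596). PRELID1 shares 24.2% of the exon bases of MXD3 on the opposite strand and also fell, by 0.57 in EW8 and by 0.24 in TC71. RAB24 shares 19.5% on the same strand and gave 0.33 in EW8 and 0.61 in TC71, neither called. The strand setting of the counting is not given in the sources used here, so the values of MXD3 are uncertain in these parts.

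The window before the MXD3 start (GRCh38.p14, chr5:177312753-177313002, - strand) is shown because it holds the AP-1 letters. Capitals mark TGAGTCA, whose first base lies 79 bases before the start.

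MXD3: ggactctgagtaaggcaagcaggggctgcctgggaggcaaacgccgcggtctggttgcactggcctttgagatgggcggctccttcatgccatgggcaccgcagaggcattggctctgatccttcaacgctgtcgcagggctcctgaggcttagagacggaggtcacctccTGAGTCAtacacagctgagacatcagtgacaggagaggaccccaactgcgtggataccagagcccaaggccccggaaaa

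MNT, the broadly expressed antagonist, lies on chromosome 17 (2384073 to 2401104, - strand) and passed the test for a response in neither line. EW8 libraries held 27.0, 28.9 and 23.4 CPM at 0 h and 29.7, 26.6 and 27.3 CPM at 48 h, and TC71 libraries 29.2, 30.6 and 28.4 CPM and then 29.9, 24.95 and 28.2 CPM. The groups overlapped in both lines. For EW8 the log2 fold change was 0.09 (95% interval -0.06 to 0.24, adjusted p = 0.303) and for TC71 -0.08 (-0.23 to 0.06, adjusted p = 0.368), and the difference was 0.17 (adjusted p = 0.178). In EW8 the value turned to -0.04 without EW8 0 h replicate 3, the lowest library.

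At 0 h, MNT was called lower in EW8 than in TC71 although the libraries overlapped (-0.17, adjusted p = 0.0467). This call was lost with DESeq2 size factors (adjusted p = 0.0559), without the filter (0.0567), with the Wald test of DESeq2 (0.0933), with a fit that was not robust (0.0543) and with the replicate number as a block (0.278). It was also lost without EW8 0 h replicate 3 (-0.07, adjusted p = 0.475). The same held without EW8 0 h replicate 1, EW8 48 h replicate 1 or 2, TC71 0 h replicate 1 or 2 or TC71 48 h replicate 3 (-0.15 to -0.18, adjusted p of 0.0501 to 0.113). At 48 h the difference was 0.01 (95% interval -0.14 to 0.15).

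The window before the MNT start (GRCh38.p14, chr17:2401061-2401310, - strand) is shown as the other with an E-box, beside that of MXD4. Capitals mark CACGTG, 193 bases before the start. The 2 genes with these letters did not share a response, since MXD4 rose in both lines and MNT passed the test in neither.

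MNT: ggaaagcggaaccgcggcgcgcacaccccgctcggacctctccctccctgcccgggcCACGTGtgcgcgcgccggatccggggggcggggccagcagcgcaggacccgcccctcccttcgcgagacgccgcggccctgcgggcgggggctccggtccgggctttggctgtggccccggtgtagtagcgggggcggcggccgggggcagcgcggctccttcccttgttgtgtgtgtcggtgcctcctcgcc

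Counted over the network, 6 of 9 members responded differently in the 2 lines, with MYC, PVT1, MAX, MXD1, MXD4 and MXI1 all having the higher (more positive) log2 fold change in EW8, against 25.7% of all genes, and 0 of 9 the lower, against 22.4%. At 0 h, 0 members were higher in EW8 (32.8% of all genes) and 6 were lower (32.9%). At 48 h, 4 were higher (37.3%) and 4 lower (35.4%). The counts of 0 for the difference and at 0 h were also 0 at an unadjusted p below 0.05 in edgeR and with the Wald test of DESeq2. MYC and MXD1 were in the lower group at 0 h and in the higher at 48 h, although the small difference of MYC at 0 h was not called against a fold of 1.2.

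The transcripts of the MYC family and of its antagonists were then summed per length (RPKM, reads per kilobase of annotated exon, scaled to library size as CPM is). In EW8 the family sum went from 69.4 ± 2.08 to 134 ± 3.60 RPKM and the antagonist sum from 11.9 ± 0.856 to 21.4 ± 0.931 RPKM (SD, n = 3). Both sums thus rose side by side without overlap, and their ratio was 5.86 ± 0.370 at 0 h and 6.28 ± 0.210 at 48 h, with overlapping libraries. In TC71 the family sum was 77.0 ± 2.05 and 74.7 ± 4.18 RPKM and the antagonist sum 23.4 ± 0.723 and 25.2 ± 2.07 RPKM. The ratio was lower in that line, 3.30 ± 0.0184 at 0 h and 2.97 ± 0.141 at 48 h, and there the libraries did not overlap.

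The ratio is a description of transcripts only and depends on the genes and lengths used. Its log2 change in TC71 (-0.15) became 0.067 without MXD4, and that in EW8 (0.10) became -0.33 without MXI1 and -0.093 without MNT. Leaving out EW8 0 h replicate 2 or 3 moved the EW8 value to 0.065 or 0.150. With canonical transcript lengths it was 4.77 ± 0.402 and 6.14 ± 0.266 in EW8, without overlap. With either set of lengths, the mean ratio of EW8 stayed above that of TC71 at both times.

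While the antagonist sum overlapped between times in TC71, the make-up of the antagonists shifted in both lines. In EW8, MXD1 went from 6.41% to 32.9% of the antagonist RPKM and MXD4 from 15.3% to 27.1%, while MXI1 went from 40.9% to 20.3%, MNT from 25.6% to 14.96% and MXD3 from 11.8% to 4.68%. In TC71, MXD4 was the leading antagonist at both times (40.3% and 48.6%), MXD1 went from 6.29% to 10.7%, and MXI1 from 32.0% to 22.7%. With canonical transcript lengths, a setting added after seeing the data, MXD1 still went up in EW8 (3.64% to 22.4%), but MXD4 was then the leading antagonist at 48 h (28.7%). The share of MXD3 in EW8 was then 26.0% and 12.4%, over 2 times that with exon unions, and MXD1 in TC71 was 3.80% and 6.67%. MXI1 led in EW8 at 0 h and MXD4 in TC71 at both times with either set of lengths.

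**Figure D3:**
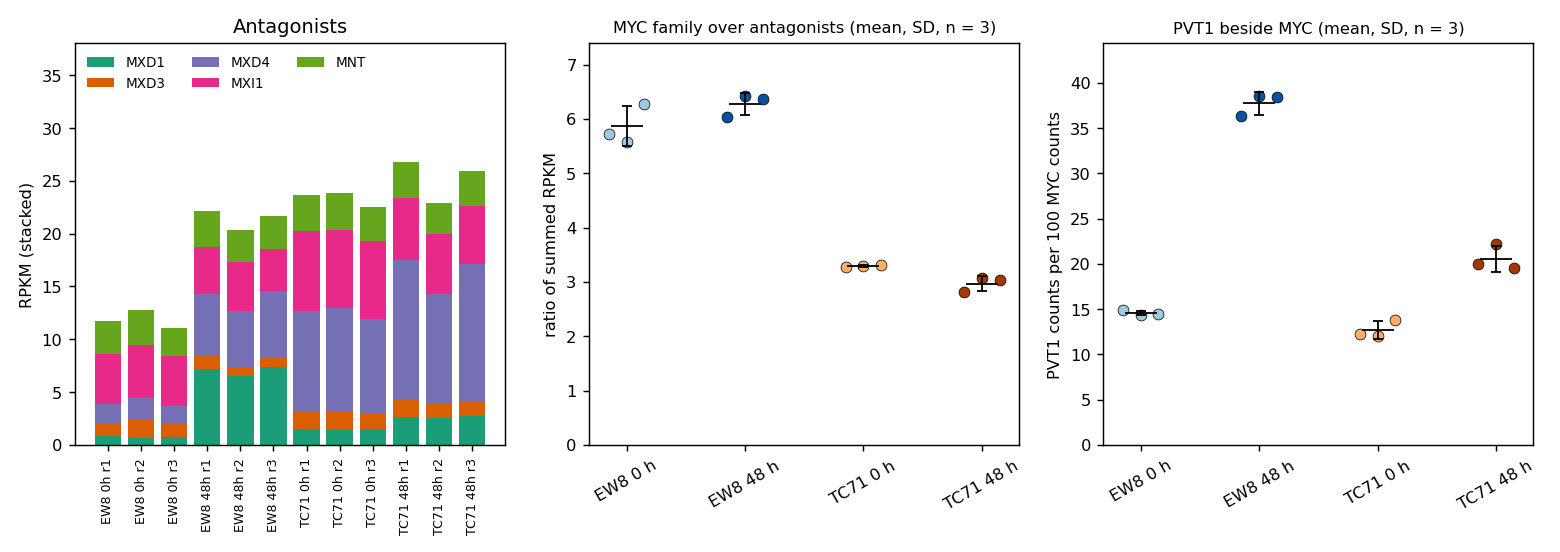
Left, RPKM of the 5 antagonists stacked in each of the 12 libraries. Middle, summed RPKM of MYC, MYCN and MYCL over that of the antagonists, and right, PVT1 counts per 100 MYC counts, with points for libraries, bars for means and whiskers for SD (n = 3). The green MXD1 part grows most in EW8 at 48 h, the ratio overlaps between times in EW8, and PVT1 gains on MYC in both lines.

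Genes that MYC is known to act on were listed by hand, with earlier results of these data known. Of 42 tested genes that MYC activates, 33 fell and 4 rose in EW8, where MYC transcripts rose, and 31 fell and 2 rose in TC71, where MYC was not called. Over all genes tested, 31.6% were called lower and 37% higher in EW8, and 19.2% and 22.9% in TC71. The list's median change was -0.50 for EW8 and -0.22 for TC71 on the log2 scale, against 0.03 and 0.00 over all genes. The list's genes with the smallest p in EW8 were NPM1 (-1.29), encoding nucleophosmin, NCL (-1.19), encoding nucleolin, and the mitochondrial chaperone gene HSPD1 (-1.02). In TC71 they were NPM1 (-0.56) and the nucleolar protein genes WDR43 (-0.56) and NOP56 (-0.39). All 5 were called lower in both lines. By size, others fell more than some of these, such as EIF4E in EW8 (-1.17) and EIF4A1 in TC71 (-0.73), encoding translation initiation factors and named after their values were seen. EIF4A1 had a mean of only 114 counts over all libraries. In EW8, 6 of the 42 fell by more than 2-fold, against 3.35% of all genes tested, and in TC71 0 did, against 0.854%.

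The few that rose are named after their values were seen: RRP12 (1.14), CDC25A (0.25), SHMT2 (0.20) and MTHFD2 (0.12) in EW8, and CDC25A (0.43) and RRP12 (0.19) in TC71. The responses differed between lines for 30 of the 42 genes, with the lower value in EW8 for 25 and the higher for 5 (22.4% and 25.7% of all genes). At 0 h, 33 of the 42 were higher in EW8 and 4 lower (32.8% and 32.9% of all genes), with a median of 0.31 against -0.01 over all genes, while MYC itself was lower by 0.14.

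Of 14 tested genes that MYC represses, 11 rose and 2 fell in EW8 (median 1.01), and 9 rose and 1 fell in TC71 (median 0.54). The all-gene shares were 37% up and 31.6% down in EW8 and 22.9% up and 19.2% down in TC71, with medians of 0.03 and 0.00. PPP1R15A, which encodes a phosphatase subunit of the stress response known as GADD34, rose by 3.67 and 1.75, and CDKN1A, encoding the cell cycle inhibitor p21, by 3.40 and 2.05. PDGFRB, a growth factor receptor gene, rose by 1.28 and 0.65. PPP1R15A and CDKN1A are also known targets of stress and p53 signaling, so the list is not particular to MYC. The gene that fell in both lines was ITGB1 (-0.29 and -0.19), and NDRG2 fell in EW8 (-0.48), both named after their values were seen.

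**Figure D4:**
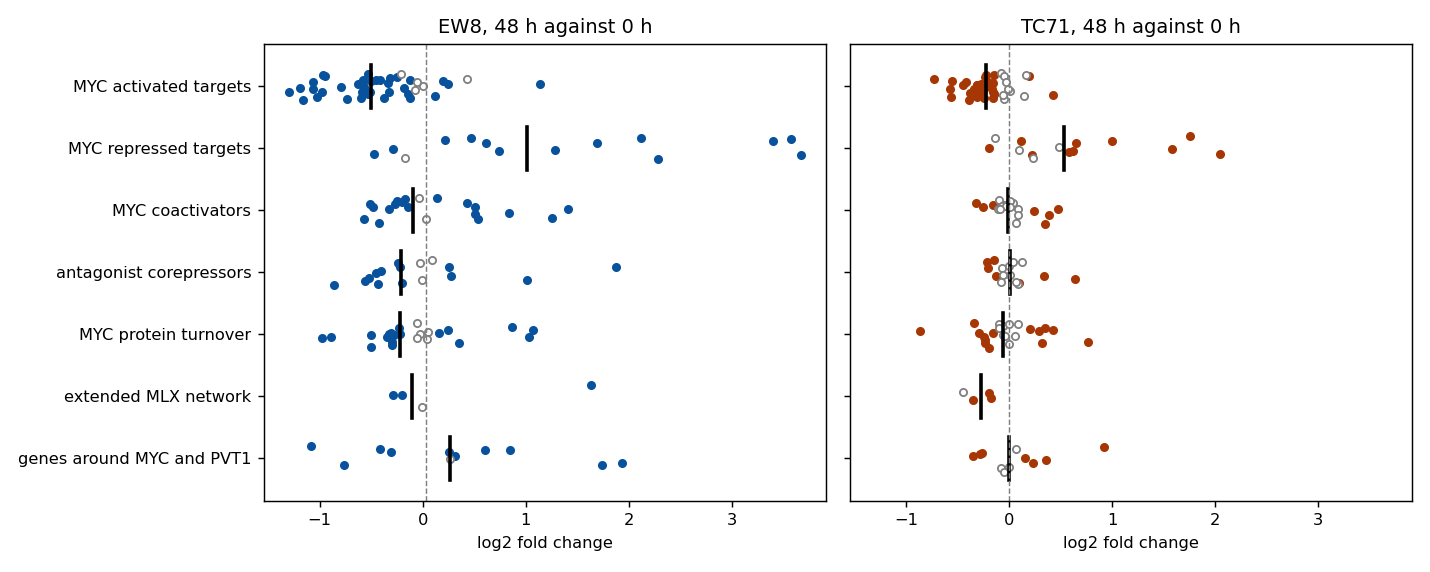
Log2 fold change, 48 h against 0 h, of each tested gene of 7 hand-written lists in EW8 (left) and TC71 (right). Filled points passed an adjusted p of 0.05, black bars are list medians and the dashed line is the median of all genes tested. The coactivator list also holds ZBTB17 and BIN1, which are not coactivators. The activated targets lie mostly left of that line and the repressed targets mostly right of it in both lines.

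Of 20 tested cofactors of MYC, mostly coactivators, 8 rose and 10 fell in EW8 (median -0.09), and 4 rose and 3 fell in TC71 (median -0.01). The shares of all genes were 37% up and 31.6% down in EW8 and 22.9% up and 19.2% down in TC71. The list also holds ZBTB17 (MIZ1), the partner of MYC in repression, and BIN1, which encodes an inhibitor that binds MYC. Both rose in both lines (1.41 and 0.35 for ZBTB17, 0.84 and 0.39 for BIN1) and are named after their values were seen. CCNT1, the cyclin of the elongation factor P-TEFb, rose in both lines (1.26 and 0.48). RUVBL1, an ATPase of chromatin complexes, fell in both (-0.49 and -0.32), as did ACTL6A, a subunit of several of them (-0.57 and -0.15), and BPTF, a subunit of a nucleosome remodeling complex (-0.15 and -0.25).

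Of 16 genes of the corepressor complexes of the antagonists, 4 rose and 9 fell in EW8 (median -0.21), and 3 rose and 4 fell in TC71 (median 0.01). In TC71 these shares were near those of all genes (22.9% up, 19.2% down), and in EW8 fewer than the 37% of all genes rose and more than the 31.6% fell. ARID4A and ARID4B, subunits of the SIN3 complex, rose in both lines (1.87 and 0.64 for ARID4A, 1.01 and 0.34 for ARID4B). The scaffold gene SIN3A, to which MXD proteins bind, fell in both (-0.86 and -0.13), and so did the deacetylase gene HDAC2 (-0.52 and -0.21).

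Of 23 genes that act on MYC protein stability, 6 rose and 12 fell in EW8 (median -0.22), and 6 rose and 8 fell in TC71 (median -0.05). The list mixes genes with opposite effects on stability, so these counts and medians give no direction for MYC protein. For comparison, all genes tested gave 37% higher and 31.6% lower in EW8, and 22.9% higher and 19.2% lower in TC71, with medians of 0.03 and 0.00. The mitotic kinase gene PLK1 fell in both (-0.98 and -0.87). SET, encoding an inhibitor of the phosphatase PP2A, also fell in both (-0.89 and -0.29). USP36 (1.03 and 0.32) and the ubiquitin ligase subunit genes FBXO32 (0.87 and 0.77) and FBXO28 (1.07 and 0.43) rose in both. Protein levels were not measured in these data.

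The extended network around MLX, a MAX-like factor, was tested for 4 of 6 listed genes. In EW8, 1 rose and 2 fell, and in TC71, 0 rose and 3 fell (medians -0.10 and -0.27), too few genes to set against the shares of all genes (37% up and 31.6% down in EW8, 22.9% and 19.2% in TC71). MLX fell in both lines (-0.29 and -0.35), as did MGA, a MAX-binding repressor (-0.20 and -0.19). ARRDC4, a target of the MLX partners, rose in EW8 (1.63) from few counts, and MLXIP fell in TC71 (-0.17).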

How the data were processed

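The authors deposited 1 table of raw read counts per gene for 12 libraries, which was used as deposited. Per the submitters' notes, reads were checked with FastQC and mapped with STAR to hg38. The counting tool, its annotation and its strand setting are not given in the sources used here, so reads shared by overlapping genes cannot be assigned again. Libraries were polyA-selected with a stranded TruSeq mRNA kit.

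Tests used edgeR 4.0.16 (R 4.3.3). Its filterByExpr, given the 4 groups, a count minimum of 10 and a total of at least 15, kept 16515 of 20771 genes. There followed TMM factors and a robust quasi-likelihood fit over all 12 libraries, with Benjamini-Hochberg adjustment over all genes tested. The threshold was an adjusted p of 0.05, and a fold of 2 is also given. Standard errors were derived from the fitted coefficients and the F statistic of the quasi-likelihood test. The 95% intervals use these standard errors around the log2 fold changes given. CPM used TMM-scaled library sizes, and RPKM the union of exons in GENCODE v44, which matched 19943 genes. A floor of 3 counts per library was used for MYCL. The procedure was also run on simulated data with the same spread for every gene, and the outcome is not given here.

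All 10 members are given. From each list, the 3 called genes with the smallest p in each line (mean of at least 20 counts) are named, and the 5 genes most correlated with MYC and with PVT1, of which 1 is not reported here. Members and lists were chosen with earlier results of these data known, and some listed genes are not analysed here. Replicate numbers were not treated as pairs. Same-numbered 0 h and 48 h libraries did not deviate together, but with 3 libraries a group this cannot decide whether the numbers mark pairs. Alternatives included DESeq2 1.42.0, other scalings and filters, a replicate block and leaving out each library. Promoter windows (250 bases before the start) and their sequences are from RefSeq, GRCh38.p14, and E-box and AP-1 letters were counted on both strands. Figures were drawn with matplotlib 3.10.9.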

Additional observations from a re-analysis of the deposited data

Results flagged for a closer look

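For 6 members the response to removal of doxycycline differed between EW8 and TC71 by the test of the difference itself, with the more positive value in EW8 each time. The difference of the log2 fold changes was 0.998 for MYC, 1.68 for PVT1, 0.60 for MAX, 2.34 for MXD1, 1.31 for MXD4 and 0.24 for MXI1 (adjusted p of 0.0188 for MXI1 and at most 6.58e-08 for the others, edgeR). The difference of MXI1 was not called against a fold of 1.2 or without any 1 of 6 libraries named above. RRM1 transcripts also moved more in EW8 (2.23), and its part in these differences was not tested.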

How the results depend on the processing

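Over 918 alternative values of 45 log2 fold changes of members, 864 kept their direction and their side of the threshold, 31 lost the call, 3 gained it and 20 changed sign, none of the last being called. With a fold above 2 also required, members that rose in EW8 went from 6 to 3 and those that fell from 2 to 0, and in TC71 from 3 to 0 and from 1 to 0. Members with the more positive log2 fold change in EW8 went from 6 to 3, members lower in EW8 at 0 h from 6 to 2, and at 48 h higher from 4 to 2 and lower from 4 to 1. Tested against a fold of 1.2, 0 fell in EW8, 2 rose in TC71 and 5 had the more positive change in EW8. At that setting 4 were lower in EW8 at 0 h and 3 at 48 h, and the other counts stayed the same. The calls lost there included those of MNT at 0 h (adjusted p = 0.933) and MXD3 at 48 h (adjusted p = 0.0855). Leaving out each library gave 1 to 2 that fell in EW8 (1 without EW8 0 h replicate 2 or EW8 48 h replicate 2 or 3), 5 to 7 with the more positive change in EW8 and 5 to 7 lower in EW8 at 0 h.

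For MAX at 0 h, the difference between lines was 0.0029 with DESeq2 size factors or its Wald test, 0.0039 without a filter, and -0.042 to 0.039 when each library was left out. PVT1 at 0 h was -0.022 with upper-quartile factors. MNT at 48 h was -0.086 with those factors, -0.00189 without a filter, -0.037 with at least 10 counts in every library, and -0.074 to 0.059 when libraries were left out, and MNT in EW8 was then -0.036 to 0.12. The log2 change of the family to antagonist ratio was 0.10 in EW8 (0.065 to 0.150 with libraries left out) and -0.15 in TC71 (-0.18 to -0.11). Without MXI1 it was -0.33 and -0.34, without MXD4 0.32 and 0.067, and in EW8 -0.093 without MNT and 0.37 with canonical transcript lengths, a setting added after seeing the data.

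Same-numbered 0 h and 48 h libraries did not deviate together (correlations of -0.37 to 0.02 over 6 same-numbered pairs and 11081 genes). Different-numbered ones gave -0.13 to 0.34. With 3 libraries a group, these values cannot decide whether the numbers mark pairs. MNT at 0 h also lost its call with DESeq2 size factors or Wald test, without a filter and with a fit that was not robust. With the replicate number as a block, MAX at 0 h was 0.031, MXD3 at 48 h (-0.48, adjusted p = 0.0596) and MNT at 0 h (-0.15, adjusted p = 0.278) lost their call, and no other member did. MYCN had 11 to 65 counts per library, and MYCL, at 1 to 3, could not be tested.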

Other observations

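Among the 14 Ewing sarcoma markers, EW8 had 8 that rose and 6 that fell, and TC71 had 8 and 4 (medians 0.11 and 0.14). All genes tested gave 37% up and 31.6% down in EW8, and 22.9% up and 19.2% down in TC71, with medians of 0.03 and 0.00. FLI1, the usual fusion partner of EWSR1, fell in both lines (-0.72 in EW8, -0.41 in TC71), as did BCL11B, a transcription factor gene (-1.11 and -0.95). NR0B1, a known fusion target (0.98 and 0.19), and CCND1, encoding cyclin D1 (0.11 and 0.18), rose in both.

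At 0 h, genes of chromosome 10, which holds MXI1, had a median log2 difference of -0.36 between EW8 and TC71, and MXI1 itself -0.63. Genes of chromosome 4 had a median of -0.19 and MXD4 a value of -2.39. Chromosome 2 had a median of 0.06, where MYCN had -1.63 and MXD1 -0.95, and chromosome 17 had -0.07, where MNT had -0.17. The medians were 0.32 for chromosome 5 (MXD3 -0.23) and 0.16 for chromosome 14 (MAX -0.00). The median for chromosome 8 was -0.02, where MYC had -0.14 and PVT1 0.06. The part of copy number in these values was not tested.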
